A study of Mus musculus with 12 samples.

Results

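The comparison concerned the livers of p53-/- and p66-/- mice, each set against the liver of wild-type (WT) mice, and its members were the genes on which both knock-outs lay on the same side of WT. A gene was counted when it lay at least 0.585 log2 units (1.5-fold) below WT in both knock-outs, or above WT in both. Of 18193 genes measured, 170 were lower and 80 were higher in both, 250 in all. The difference between the p53-/- and p66-/- livers served as the yardstick, since it is the available comparison that does not use the WT array. The 3 liver arrays were part of a set of 12, with 1 Affymetrix Mouse Genome array for each of 4 tissues (liver, heart, lung, thymus) and 3 genotypes.

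The groups were p53-/- liver, p66-/- liver and WT liver, labelled p53KO, p66KO and WT in the plots. All came from Sv/129 mice aged 2 months, with no treatment and no agent named in the labels, and no feeding state, hour of collection or sex given. p53-/- mice lack the tumour suppressor p53, and p66-/- mice lack p66Shc, the isoform of the Shc1 adaptor linked to oxidative stress. Each array held RNA pooled from 4 mice, so the spread between mice is not visible, and 1 array per genotype leaves no replicate check and no p-value within liver. The number of arrays limits the precision of every value below. All values are log2 signals of single arrays, and a difference is knock-out minus WT. Because the WT array stands in both differences, anything particular to it appears in both, and the 2 differences are not independent.

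Hepatocytes secrete acute phase proteins such as serum amyloid A when interleukin-6 and interleukin-1 reach them, through the transcription factors STAT3, NF-kB and C/EBP. In fasting, glucagon and glucocorticoids raise the enzymes of gluconeogenesis, while the fatty acid receptor PPARalpha raises those of fatty acid oxidation. Along the lobule, periportal hepatocytes make glucose and urea, and pericentral ones make glutamine, bile acids and cytochromes P450 under Wnt signals. In whole liver RNA, fewer cells of a type and less RNA per cell cannot be told apart.

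The liver label was borne out by 12 of 13 hepatocyte markers, which read between 10.94 and 14.79 on the 3 arrays. Albumin (Alb) read 14.71 in p53-/- and 14.74 in p66-/-, against 14.79 in WT. The remaining marker, Ass1, is represented by a probe set near the floor of the arrays, at 4.65 in p53-/- and 4.46 in p66-/-, against 4.89 in WT. Across 45101 probe sets, which do not count as replicates, the correlation was 0.993 between the knock-out livers, 0.989 between p53-/- and WT and 0.990 between p66-/- and WT. The median gene signal was 7.09 in p53-/- and 7.10 in p66-/-, against 7.04 in WT. The 3′ minus 5′ difference of the Gapdh control probe sets, a sign of RNA quality, was 0.82 in p53-/- and 0.90 in p66-/-, against 0.95 in WT, and that of Actb was 1.62 in p53-/- and 1.39 in p66-/-, against 1.68 in WT. The polyadenylated control transcripts, which are added to the RNA before labelling, stood at 8.02 (median) in p53-/- and 7.20 in p66-/-, against 7.96 in WT, so the p66-/- array was the low one on these and on Actb. The part of these differences in the results was not tested. Shc1 is measured by a pair of probe sets. The brighter read 9.31 in p53-/- and 9.14 in p66-/-, against 9.01 in WT, and the other read 6.93 in p53-/- and 6.80 in p66-/-, against 6.79 in WT. It is not known whether either covers what p66-/- mice lack, so they check no genotype label. The transcript of p53 itself was not analysed here.

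More liver genes were lower than higher in the knock-outs. In p53-/- liver 528 genes (2.90%) were 1.5-fold or more lower than WT and 312 (1.71%) were higher, and in p66-/- liver 330 (1.81%) were lower and 237 (1.30%) were higher. Between the knock-outs, p53-/- was higher than p66-/- for 124 genes (0.682%) and lower for 179 (0.984%). Both knock-outs were lower than WT for 170 genes, 0.934% of those measured, and higher for 80, or 0.440%. With each array centred on its own median, the counts lower and higher became 251 and 46 in both knock-outs, 678 and 228 in p53-/-, and 467 and 154 in p66-/-. Over all genes the SD of the difference was 0.303 for p53-/- minus WT and 0.283 for p66-/- minus WT, against 0.224 for p53-/- minus p66-/-. Read the same way with another array as the odd one, the p53-/- array stood apart from p66-/- and WT together for 109 genes and the p66-/- array from p53-/- and WT for 65, against the 250 for the WT array.

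Among the 170 genes lower in both, the knock-outs lay nearer to each other than either did to WT for 165, and among the 80 higher genes they did so for 80. The median absolute difference between the knock-outs was 0.126 for the lower genes and 0.113 for the higher ones. By comparison the smaller of the differences from WT had a median of -0.75 in the lower genes and 0.68 in the higher ones. These figures describe the choice of members and support nothing by themselves. Of the lower genes 34 were 2-fold or more lower in both knock-outs, 9 were 4-fold and 4 were 16-fold. Of the higher genes 4 were at least 2-fold higher in both and 1 was 16-fold. The lower genes were bright, with 112 of 170 among the 6064 brightest genes of the liver and 15 among the 6064 dimmest, while of the 80 higher genes 24 were among the brightest and 17 among the dimmest. The SD between the knock-outs was 0.229 over the brightest and 0.208 over the dimmest. At the threshold itself, Nol8 (smaller difference -0.59) and Leng1 (-0.59) were the last lower genes counted, and Tram2 (-0.58) and the lipid droplet protein Plin2 (-0.58) were the first left out. On the other side Vwc2 (0.59) and the chemokine Cxcl13 (0.59) were counted, and Lama4 (0.58) and H2-Aa (0.58) were not.

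**Figure D1:**
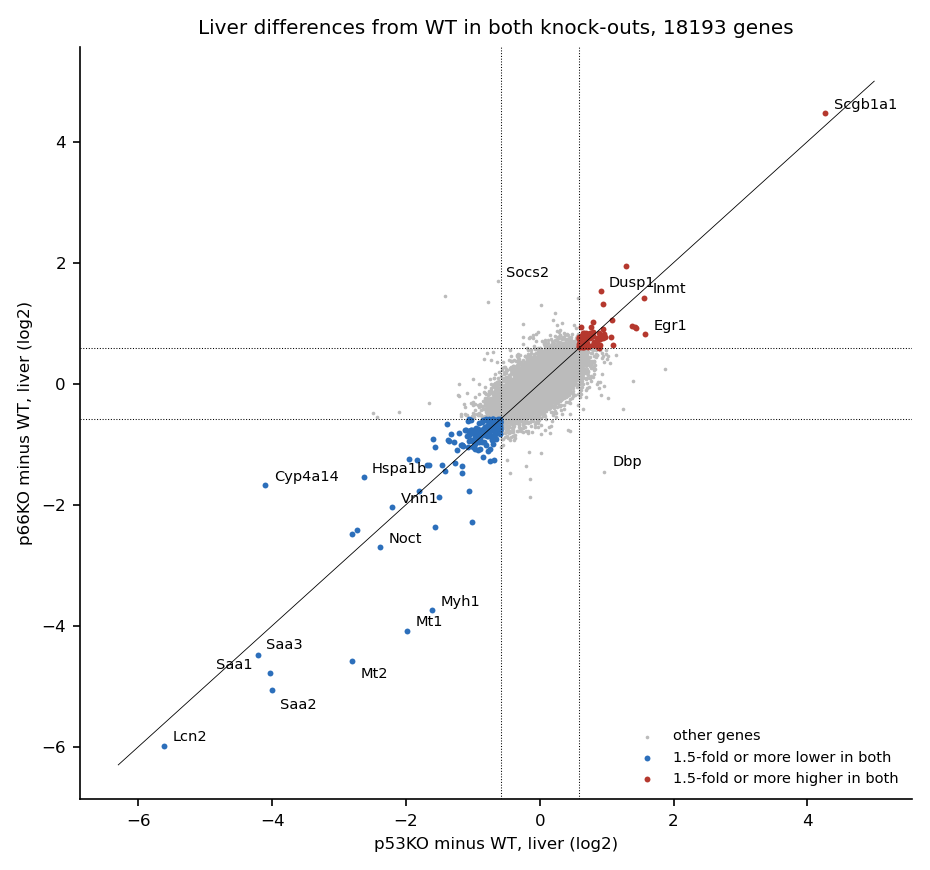
Difference from WT liver in log2 units for each of 18193 genes, p53KO minus WT on the horizontal axis and p66KO minus WT on the vertical one; both use the same WT array, dotted lines mark 1.5-fold and the solid line marks equal differences. Coloured points are the 170 genes lower and the 80 genes higher in both, and the serum amyloid A genes, Lcn2, Mt1 and Mt2 lie farthest below WT while Scgb1a1 lies farthest above.

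The acute phase proteins led the lower genes. Of 33 acute phase genes measured, 11 (33.3%) were 1.5-fold or more lower in both knock-outs and 0 were higher, against 0.934% and 0.440% of all genes. Those shares of all genes stand beside each list count for both knock-outs below. All lists were chosen with earlier results of these data known, so no list share has weight as a test. The median difference over the acute phase list was -0.43 in p53-/- and -0.34 in p66-/-, where the median over all genes was 0.00 and 0.02, and 26 of the 33 lay below WT in both. The serum amyloid A genes encode apolipoproteins that liver releases in large amounts during inflammation. Saa1 read 10.38 in p53-/- and 9.62 in p66-/-, against 14.41 in WT, which is 16.3-fold lower in p53-/- and 27.6-fold lower in p66-/-. Saa2 read 8.76 in p53-/- and 7.70 in p66-/-, against 12.77 in WT. Saa3 read 8.07 in p53-/- and 7.80 in p66-/-, against 12.28 in WT. On all of these the WT liver stood more than 3 log2 units above both knock-outs. Below it p53-/- lay above p66-/- by 0.76 for Saa1 and 1.07 for Saa2, and by less than 1.5-fold for Saa3. Saa1 and Saa2 are near-identical copies, and their probe sets are of the kind that can bind related transcripts, so their signals may not be separate. A further Saa1 probe set read 10.92 in p53-/- and 9.90 in p66-/-, against 13.80 in WT.

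The largest difference on the liver arrays was that of Lcn2, lipocalin 2, which withholds iron from bacteria by binding their siderophores. Lcn2 read 6.91 in p53-/- and 6.55 in p66-/-, against 12.53 in WT, or 49.0-fold and 63.2-fold lower. The knock-outs lay within 1.5-fold of each other. Orm2, an orosomucoid that carries drugs and lipids in plasma, read 5.32 in p53-/- and 5.63 in p66-/-, against 8.12 in WT. The fibrinogen-like hepatokine Fgl1 read 11.23 in p53-/- and 11.27 in p66-/-, against 13.05 in WT. Socs3, the inhibitor of the interleukin-6 receptor that STAT3 induces, read 8.69 in p53-/- and 8.80 in p66-/-, against 10.15 in WT. The protease inhibitor Serpina3n, the lipopolysaccharide-binding protein Lbp and the glycoprotein Lrg1 differed less. Serpina3n read 11.05 in p53-/- and 10.99 in p66-/-, against 12.03 in WT. Lbp read 10.19 in p53-/- and 10.29 in p66-/-, against 11.22 in WT. Lrg1 read 12.64 in p53-/- and 12.68 in p66-/-, against 13.60 in WT. Haptoglobin (Hp), which binds free haemoglobin, read 13.79 in p53-/- and 13.75 in p66-/-, against 14.40 in WT. The negative acute phase protein transthyretin (Ttr) read 14.58 in p53-/- and 14.49 in p66-/-, against 14.40 in WT. Fibrinogen, hepcidin and C-reactive protein stayed under 1.5-fold. Fgb read 13.90 in p53-/- and 13.92 in p66-/-, against 14.07 in WT, and Hamp read 13.64 in p53-/- and 13.58 in p66-/-, against 13.55 in WT. The acute phase difference therefore lay in some members of the list and not in others.

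The promoters of the amyloid genes and Lcn2 are shown because these genes moved together most strongly. The sequences are RefSeq windows on build GRCm38.p6 that end at the gene's start, 150 bases each and 250 for Lcn2, and capitals mark matches on either strand to the C/EBP letters TTNNGNAA. Saa3 lies at chr7:46715677-46715826 on the minus strand, Saa1 at chr7:46742981-46743130 on the minus strand, Saa2 at chr7:46751683-46751832 on the plus strand and Lcn2 at chr2:32387740-32387989 on the minus strand.
Saa3: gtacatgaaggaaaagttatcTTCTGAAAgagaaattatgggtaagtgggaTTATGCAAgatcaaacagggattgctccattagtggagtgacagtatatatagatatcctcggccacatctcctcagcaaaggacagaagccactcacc
Saa1: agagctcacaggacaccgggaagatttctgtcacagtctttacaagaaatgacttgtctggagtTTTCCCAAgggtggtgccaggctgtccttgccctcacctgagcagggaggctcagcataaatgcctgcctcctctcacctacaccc
Saa2: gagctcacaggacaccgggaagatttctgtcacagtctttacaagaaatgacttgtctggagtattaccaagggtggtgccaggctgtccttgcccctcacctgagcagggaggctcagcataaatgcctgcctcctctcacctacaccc
Lcn2: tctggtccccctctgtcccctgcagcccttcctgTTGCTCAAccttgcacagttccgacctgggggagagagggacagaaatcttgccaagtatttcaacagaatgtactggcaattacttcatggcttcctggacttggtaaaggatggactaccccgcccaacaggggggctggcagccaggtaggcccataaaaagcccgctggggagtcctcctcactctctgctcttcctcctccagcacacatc
The Saa1 and Saa2 windows share 147 identical bases, with 2 mismatches and 2 gaps, and Saa2 holds no match within the stretch shown. Over the 250 bases before the start, 6 of the 8 lower acute phase genes with a promoter in the table held a C/EBP match (Lcn2, Orm2, Saa1, Saa2, Saa3 and Serpina3n), where 36.8% of 32851 promoters do. STAT letters (TTCNNNGAA, in 7.02% of promoters) were found for Socs3 alone of these 8. NF-kB letters (GGGRNNYYCC, in 7.25% of promoters) were found for 0 of the 8. A gene was counted if any of its windows matched, whereas the shares are per window, so the figures are not fully alike. A match is a description of letters and not a binding site.

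Mt1 and Mt2, the metallothioneins that bind zinc and copper and are induced by metals, glucocorticoids and inflammation, were lower in both knock-outs. Mt2 read 10.06 in p53-/- and 8.28 in p66-/-, against 12.87 in WT, and Mt1 read 10.57 in p53-/- and 8.47 in p66-/-, against 12.55 in WT. Here the knock-outs did not lie together, since p53-/- minus p66-/- was 1.78 for Mt2 and 2.10 for Mt1. The Mt1 probe set ends in _s_at and may bind related transcripts, and a further Mt1 probe set gave differences of -0.12 in p53-/- and -0.78 in p66-/-. The Mt2 promoter on the plus strand, chr8:94172468-94172617, shows in capitals its 3 matches to the metal response letters TGCNCNC, which 44.4% of promoters hold over 250 bases.
Mt2: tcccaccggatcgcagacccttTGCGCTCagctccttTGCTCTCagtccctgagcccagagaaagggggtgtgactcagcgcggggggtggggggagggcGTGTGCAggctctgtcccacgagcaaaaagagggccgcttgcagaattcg

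Other arms of inflammation were counted in lists of their own. Of 24 NF-kB and chemokine genes 3 (12.5%) were lower and 1 (4.17%) was higher in both knock-outs, against 0.934% and 0.440% of all genes, the list median being 0.04 in p53-/- and -0.04 in p66-/-. The lower genes were transcriptional regulators that inflammatory signals induce. Nfkbiz, which steers NF-kB on its promoters, read 7.0 in p53-/- and 6.29 in p66-/-, against 8.07 in WT. Cebpd, a C/EBP factor of the acute phase, read 7.05 in p53-/- and 7.14 in p66-/-, against 7.99 in WT. Bcl3, an NF-kB coregulator, read 7.44 in p53-/- and 7.60 in p66-/-, against 8.20 in WT. In these the WT array was the high one. Nfkbiz and Cebpd lost the call with the mean of all probe sets, and Bcl3 lost it with quantile scaling. The B cell chemokine Cxcl13 was the higher member, at 7.95 in p53-/- and 8.01 in p66-/-, against 7.36 in WT. That call was lost with the mean of all probe sets and with each array centred on its median. The cytokines themselves differed little, with Il6 at 3.97 in p53-/- and 4.05 in p66-/-, against 4.02 in WT, near the floor of the arrays, and Il1b at 6.82 in p53-/- and 6.61 in p66-/-, against 6.67 in WT. Of 34 interferon response genes 0 were lower in both and 1 was higher, the ubiquitin ligase Herc6, at 9.63 in p53-/- and 9.65 in p66-/-, against 8.96 in WT. Among 21 complement and 16 coagulation genes, 0 passed the threshold in both knock-outs in either direction. C9 of the membrane attack complex read 13.83 in p53-/- and 13.93 in p66-/-, against 13.96 in WT, and prothrombin (F2) read 12.85 in p53-/- and 12.98 in p66-/-, against 13.05 in WT.

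Of 12 neutrophil markers 3 were lower in both knock-outs, namely Lcn2, S100a8 and S100a9. The log2 of the summed signal of the 12 was 10.62 in p53-/- and 10.60 in p66-/-, against 12.85 in WT. In WT Lcn2 dominates that sum. S100a8, a subunit of calprotectin, read 5.02 in p53-/- and 5.72 in p66-/-, against 6.97 in WT, and S100a9, its partner, read 6.01 in p53-/- and 6.14 in p66-/-, against 7.24 in WT. The list median was 0.15 in p53-/- and 0.06 in p66-/-, and 5 of the 12 lay above WT in both, all by less than 1.5-fold. The furthest above was the granule peptide Camp, at 6.55 in p53-/- and 6.51 in p66-/-, against 6.03 in WT, and the granulocyte receptor Csf3r read 7.05 in p53-/- and 7.14 in p66-/-, against 6.74 in WT. The granule enzymes lay nearer to WT, with Elane at 8.59 in p53-/- and 8.78 in p66-/-, against 8.62 in WT, and Mpo at 6.92 in p53-/- and 6.96 in p66-/-, against 6.96 in WT. Among 13 Kupffer cell and macrophage markers 0 differed in both, and Clec4f, which marks Kupffer cells, read 8.96 in p53-/- and 9.31 in p66-/-, against 9.12 in WT. Markers of T and NK cells (10 genes), B and plasma cells (7), sinusoidal endothelium (10), stellate cells and fibroblasts (12), cholangiocytes (5), erythroid cells (6), adipocytes (7), gut and gallbladder (9) and salivary gland (14) likewise gave 0 in both directions. The part of any cell type in the acute phase difference was not tested.

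**Figure D2:**
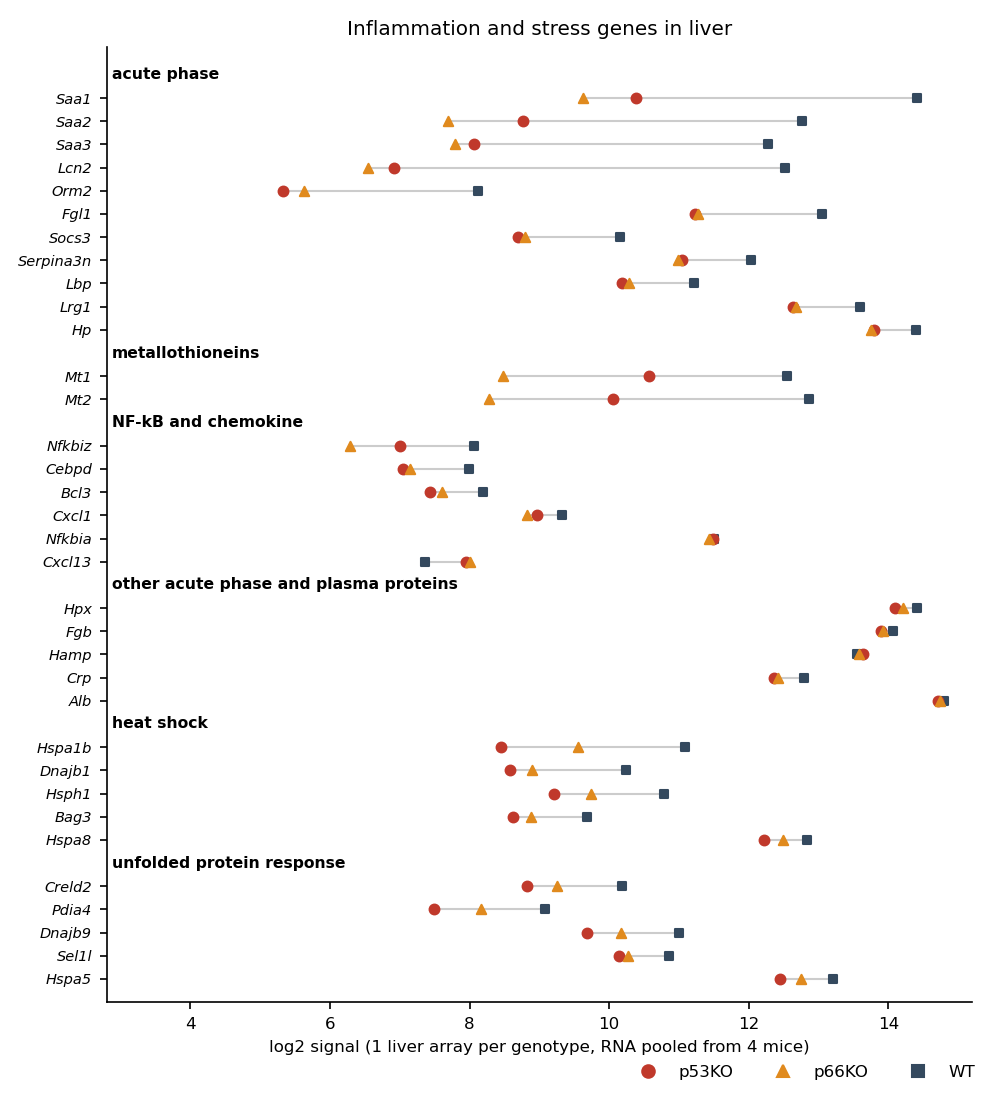
Log2 signal of inflammation and stress genes on the 3 liver arrays, 1 row per gene and 1 point per array (p53KO, p66KO, WT), with a line that spans the arrays. For the serum amyloid A genes, Lcn2 and the metallothioneins the WT point lies far to the right of both knock-outs, and Lcn2 spans 6.55 to 12.53.

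Heat shock chaperones, most of them of the cytosol and some of mitochondria, also lay below WT. Of 14 measured, 4 (28.6%) were 1.5-fold or more lower in both knock-outs and 0 were higher, against 0.934% and 0.440% of all genes. Of the 14, 13 lay below WT in both, and the median member lay -0.67 from WT in p53-/- and -0.36 in p66-/-. Hspa1b, an inducible HSP70 chaperone, read 8.46 in p53-/- and 9.55 in p66-/-, against 11.09 in WT. Its cochaperone Dnajb1 read 8.58 in p53-/- and 8.90 in p66-/-, against 10.24 in WT. Hsph1, which exchanges the nucleotide of HSP70, read 9.21 in p53-/- and 9.73 in p66-/-, against 10.78 in WT. Each followed the order p53-/-, p66-/-, WT, and the same order was seen in Bag3, a cochaperone for damaged proteins, at 8.63 in p53-/- and 8.88 in p66-/-, against 9.68 in WT. Constitutive Hspa8 read 12.22 in p53-/- and 12.50 in p66-/-, against 12.83 in WT, and passed 1.5-fold in p53-/- alone. The Hspa1b promoter at chr17:34959239-34959388, minus strand, holds in capitals 1 match to the heat shock letters GAANNTTC, which 6.69% of promoters hold over 250 bases, and it was found in none of Dnajb1, Hsph1 and Bag3. No other arrangement of heat shock letters was searched, so their absence from these promoters was not tested.
Hspa1b: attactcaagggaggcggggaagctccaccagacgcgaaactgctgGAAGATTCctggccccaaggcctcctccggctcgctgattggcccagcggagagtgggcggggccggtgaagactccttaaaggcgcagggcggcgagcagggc

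The unfolded protein response, which matches the folding capacity of the endoplasmic reticulum to its load, had 6 of 24 genes lower in both and 0 higher. Its median difference was -0.47 in p53-/- and -0.30 in p66-/-. Creld2, a disulfide isomerase, read 8.82 in p53-/- and 9.26 in p66-/-, against 10.19 in WT, and the isomerase Pdia4 read 7.49 in p53-/- and 8.17 in p66-/-, against 9.08 in WT. Dnajb9, a cochaperone of the lumen, read 9.68 in p53-/- and 10.18 in p66-/-, which lay -1.32 and -0.82 from WT. The p53-/- array was the lowest on each of these 3. Asparagine synthetase (Asns), a target of ATF4, read 8.95 in p53-/- and 8.76 in p66-/-, against 9.84 in WT. Trib3, another ATF4 target that restrains insulin signals, read 7.67 in p53-/- and 7.56 in p66-/-, against 8.27 in WT, though without probe sets ending in _x_at or _s_at its differences were 0.10 in p53-/- and -0.09 in p66-/-. The remaining gene was Sel1l of the degradation complex, at 10.14 in p53-/- and 10.27 in p66-/-, against 10.86 in WT. Sel1l, Pdia4 and Trib3 lost the call with the mean of all probe sets. Sel1l and Trib3 also lost it with quantile scaling, and Sel1l with cyclic loess. Hspa5, the main chaperone of the lumen, read 12.45 in p53-/- and 12.75 in p66-/-, against 13.21 in WT, and so passed 1.5-fold in p53-/- only.

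Immediate early genes, switched on within minutes of a stimulus, ran the other way in part, with 2 of 22 (9.09%) higher in both and 0 lower. Of all genes 0.440% were higher and 0.934% lower in both. Egr1 read 10.18 in p53-/- and 9.42 in p66-/-, against 8.60 in WT. Dusp1, a phosphatase of MAP kinases, read 8.31 in p53-/- and 8.94 in p66-/-, against 7.40 in WT. WT was the low array on both, whereas Fos read 6.76 in p53-/- and 5.96 in p66-/-, against 6.17 in WT, with no common direction. Of 19 NRF2 and antioxidant genes 1 was lower, the glutathione synthesis subunit Gclm, at 12.11 in p53-/- and 12.09 in p66-/-, against 12.74 in WT. Its call was lost with the mean of all probe sets and with quantile and cyclic loess scaling. The carboxylesterase Ces1g was the 1 higher, at 9.26 in p53-/- and 9.43 in p66-/-, against 8.60 in WT.

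Among 27 genes that p53 activates, 4 (14.8%) were 1.5-fold or more lower and 3 (11.1%) higher in p53-/-, against 2.90% and 1.71% of all genes. In p66-/- 1 (3.70%) was lower and 1 (3.70%) higher, against 1.81% and 1.30%. The same pair counted in both: Trp53inp1, a p53-induced nuclear protein, read 9.31 in p53-/- and 9.66 in p66-/-, against 10.41 in WT, and the kinase Plk2 read 7.86 in p53-/- and 7.61 in p66-/-, against 6.97 in WT. Trp53inp1 and Plk2 lost the call with the mean of all probe sets, and Plk2 also with centred arrays. Cyclin G1 (Ccng1) was 1.5-fold lower in p53-/- alone, at 8.49, with 8.92 in p66-/- and 9.33 in WT. The cell cycle inhibitor Cdkn1a, named after its values were seen, read 8.07 in p53-/- and 9.08 in p66-/-, against 9.28 in WT. In both of these p66-/- lay nearer to WT. Bbc3 and Gadd45a went the other way, 1.5-fold higher in p53-/- alone. Bbc3 read 8.35 in p53-/- and 7.74 in p66-/-, against 7.66 in WT. Gadd45a read 6.23 in p53-/- and 5.59 in p66-/-, against 5.46 in WT. Of 24 G2-M phase genes 1 was higher in both, the spindle assembly factor Tpx2, at 8.78 in p53-/- and 8.72 in p66-/-, against 7.82 in WT. Mki67, present in dividing cells, read 5.54 in p53-/- and 5.98 in p66-/-, against 5.93 in WT.

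Genes of the fasting response were lower in part. Of 22 gluconeogenesis and fasting genes 5 (22.7%) were lower in both knock-outs and 0 higher, against 0.934% and 0.440% of all genes. Of the 22, 17 lay below WT in both, and the list median was -0.30 in p53-/- and -0.34 in p66-/-. Pck1, which commits oxaloacetate to glucose, read 12.15 in p53-/- and 11.81 in p66-/-, against 12.92 in WT. Pyruvate carboxylase (Pcx) read 11.04 in p53-/- and 10.87 in p66-/-, against 11.70 in WT. Tyrosine aminotransferase (Tat), a classic glucocorticoid target, read 11.23 in p53-/- and 10.94 in p66-/-, against 11.93 in WT. Together with the aspartate aminotransferase Got1, at 10.85 in p53-/- and 10.94 in p66-/-, against 11.82 in WT, and Trib3 above, these made up the 5. Of them Got1 alone kept the call under all the alternatives run for liver at 1.5-fold. Pck1 and Trib3 lost it with the mean of all probe sets, Tat, Pcx and Trib3 with quantile scaling, Tat and Pcx with cyclic loess, and Trib3 without probe sets ending in _x_at or _s_at. The last enzyme of the pathway, G6pc, did not join them, at 10.60 in p53-/- and 11.18 in p66-/-, against 10.79 in WT. The insulin-repressed Igfbp1 parted the knock-outs, at 9.74 in p53-/- and 10.94 in p66-/-, against 10.95 in WT.

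Of 32 PPARalpha targets and fatty acid oxidation genes, 3 (9.38%) were lower in both and 0 higher, against 0.934% and 0.440% of all genes. In p53-/- 8 of the 32 were lower and in p66-/- 4 (12.5%), against 2.90% and 1.81%, with list medians of -0.37 for p53-/- and -0.16 for p66-/-. Vnn1, the pantetheinase that PPARalpha induces, read 8.31 in p53-/- and 8.48 in p66-/-, against 10.52 in WT. Cyp4a14, a fatty acid omega-hydroxylase, read 7.79 in p53-/- and 10.21 in p66-/-, against 11.89 in WT. The knock-outs lay together for Vnn1 and far apart for Cyp4a14. Decr2, a peroxisomal reductase of the pathway, read 9.34 in p53-/- and 9.50 in p66-/-, against 10.30 in WT. Pdk4, which shuts off pyruvate oxidation in fasting, was the lowest in p53-/-, at 5.98, with 7.31 in p66-/- and 7.63 in WT. Cpt1a, the gate of mitochondrial fatty acid entry, read 11.01 in p53-/- and 10.58 in p66-/-, against 11.48 in WT. Fabp1, another target, did not go below WT, at 14.54 in p53-/- and 14.51 in p66-/-, against 14.36 in WT. The opposite, fed programme gave 0 genes in both directions among 23 of fatty acid synthesis and 20 of sterol synthesis. Fasn, the fatty acid synthase, read 10.60 in p53-/- and 10.43 in p66-/-, against 10.58 in WT, and Hmgcs1 of the sterol pathway read 12.45 in p53-/- and 12.42 in p66-/-, against 12.74 in WT.

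Of 18 glucocorticoid-induced genes 4 (22.2%) were lower and 1 was higher in both, and 10 (55.6%) were lower in p53-/- and 6 (33.3%) in p66-/-, against 2.90% and 1.81% of all genes, with list medians of -0.63 for p53-/- and -0.40 for p66-/-. The 4 were Mt1, Mt2, Tat and Fkbp5, and the first 3 also belong to other lists above. Fkbp5, a cochaperone that restrains the glucocorticoid receptor, read 9.23 in p53-/- and 8.88 in p66-/-, against 10.08 in WT. Fkbp5 lost the call with the mean of all probe sets, and Tat with quantile and cyclic loess scaling. Mt1 lost it without probe sets ending in _x_at or _s_at. Dusp1 was the higher one. Tsc22d3, also known as GILZ, read 10.06 in p53-/- and 9.35 in p66-/-, against 9.70 in WT, so WT lay between the knock-outs. Gadd45g likewise parted them, at 7.51 in p53-/- and 9.65 in p66-/-, against 8.29 in WT.

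Of 13 genes of the growth hormone and IGF axis 0 passed 1.5-fold on the same side of WT in both, and 3 differed by 1.5-fold between the knock-outs, namely Igfbp1, Socs2 and Cish. Socs2, a feedback inhibitor that STAT5 induces, read 8.07 in p53-/- and 10.38 in p66-/-, against 8.69 in WT. Cish, another such inhibitor, read 8.24 in p53-/- and 9.48 in p66-/-, against 8.49 in WT. In both p66-/- was the high array, and without probe sets ending in _x_at or _s_at Socs2 lay -1.47 from WT in p53-/- and 0.76 in p66-/-. Igf1 was level at 12.91 in p53-/- and 12.91 in p66-/-, against 12.92 in WT. Igfals, the partner of IGF-1 in plasma, read 9.90 in p53-/- and 10.01 in p66-/-, against 9.42 in WT, and the carrier Igfbp3 read 8.79 in p53-/- and 8.87 in p66-/-, against 8.38 in WT, so on these the knock-outs lay together above WT by less than 1.5-fold. The 16 male-biased liver genes gave 0 in both directions, with Mup3, a major urinary protein, at 14.28 in p53-/- and 14.13 in p66-/-, against 14.29 in WT. The Y-linked Eif2s3y read 8.43 in p53-/- and 8.13 in p66-/-, against 8.55 in WT, and Xist of the inactive X read 7.39 in p53-/- and 7.36 in p66-/-, against 7.37 in WT. Of 18 female-biased genes 2 were lower in both. Cyp17a1, a steroid hydroxylase, read 7.63 in p53-/- and 6.84 in p66-/-, against 9.20 in WT. Cyp39a1, an oxysterol hydroxylase of bile acid synthesis, read 7.20 in p53-/- and 7.54 in p66-/-, against 8.88 in WT. Of the other 16 female-biased genes 0 passed in both, and Cyp2b9 read 6.18 in p53-/- and 6.10 in p66-/-, against 6.04 in WT. Among 8 thyroid hormone-driven genes 0 passed in both, and the deiodinase Dio1 read 10.63 in p53-/- and 9.78 in p66-/-, against 10.55 in WT.

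Of 24 genes of the circadian clock and its output, 1 was lower and 1 higher in both knock-outs. Noct, a rhythmic phosphatase of NADP cofactors, read 6.90 in p53-/- and 6.59 in p66-/-, against 9.29 in WT. Rgs16, a brake on G protein signals that follows feeding time in liver, read 8.14 in p53-/- and 7.71 in p66-/-, against 6.76 in WT. Some other members had WT between the knock-outs. Dbp, an output factor with a strong daily swing, read 8.95 in p53-/- and 6.53 in p66-/-, against 7.99 in WT. Tef, a relative of Dbp, read 10.13 in p53-/- and 9.28 in p66-/-, against 9.99 in WT, and Arntl, whose phase is opposite, read 7.57 in p53-/- and 8.26 in p66-/-, against 8.10 in WT. On Dbp the arrays ran p53-/-, WT, p66-/- from high to low, and Arntl ran p66-/-, WT, p53-/-. The core gene Clock was level, at 8.12 in p53-/- and 8.15 in p66-/-, against 8.14 in WT, and Per2 lay above WT in both, at 6.75 in p53-/- and 6.46 in p66-/-, against 6.28 in WT. Hour of collection is not given, and its part was not tested.

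Most zonated genes stayed under 1.5-fold. Of 25 periportal genes 4 (16.0%) were lower in both and 0 higher, against 0.934% and 0.440% of all genes. The list median was -0.24 in p53-/- and -0.32 in p66-/-. Of 32 pericentral genes 1 (3.12%) was lower and 0 higher, and the list median was -0.10 in p53-/- and 0.08 in p66-/-. The periportal 4 were Pck1, Tat, Aldh1b1 and Hsd17b13, of which the first pair were counted among the fasting genes. Aldh1b1, a mitochondrial aldehyde dehydrogenase, read 8.06 in p53-/- and 8.20 in p66-/-, against 9.22 in WT. Hsd17b13, a lipid droplet enzyme, read 10.80 in p53-/- and 10.76 in p66-/-, against 11.39 in WT. Hsd17b13 lost the call with the mean of all probe sets and with quantile and cyclic loess scaling. Pck1 and Tat lost it as given for the fasting genes. Of the periportal 4, Aldh1b1 alone kept it under all the alternatives run for liver at 1.5-fold. Other periportal enzymes lay closer. Cps1, the entry to the urea cycle, read 13.37 in p53-/- and 13.46 in p66-/-, against 13.61 in WT, and Cyp2f2, a periportal P450, read 13.69 in p53-/- and 13.69 in p66-/-, against 13.58 in WT. The pericentral gene lower in both was Slc13a3, a dicarboxylate carrier, at 8.58 in p53-/- and 8.80 in p66-/-, against 9.40 in WT. Slc13a3 lost the call with the mean of all probe sets, without probe sets ending in _x_at or _s_at, and with quantile and cyclic loess scaling. Glutamine synthetase (Glul), found in the last row of cells around the vein, read 11.98 in p53-/- and 12.02 in p66-/-, against 12.13 in WT. Cyp2e1 read 13.94 in p53-/- and 14.19 in p66-/-, against 14.02 in WT. The Wnt target Axin2 read 7.47 in p53-/- and 7.72 in p66-/-, against 7.72 in WT.

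**Figure D3:**
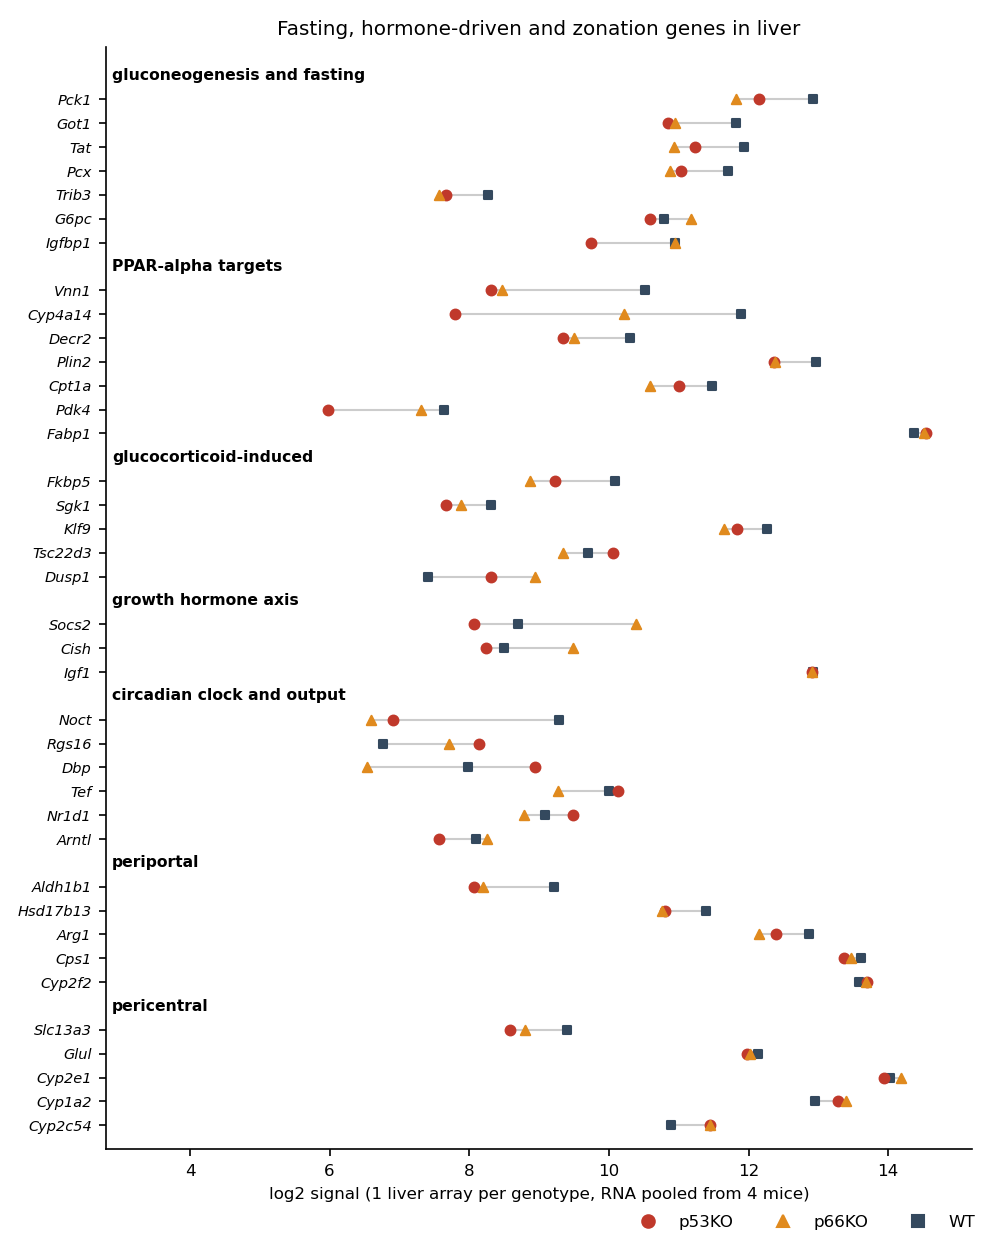
Log2 signal on the p53KO, p66KO and WT liver arrays for genes of fasting, PPARalpha, glucocorticoids, growth hormone, clock, and the periportal and pericentral zones, 1 point per array. Pck1, Tat and Fkbp5 lie below WT in both knock-outs, whereas Socs2 and Dbp place WT between the knock-outs and Glul hardly separates the arrays.

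Metabolic enzymes differed in single members more than as groups. Of 55 urea cycle and amino acid genes 4 (7.27%) were lower in both and 0 higher, against 0.934% and 0.440% of all genes. Of the 55, 38 lay below WT in both, and the list median was -0.15 in p53-/- and -0.21 in p66-/-. The 4 were Got1, Tat, Asns and Mat1a, the liver enzyme that makes S-adenosylmethionine, which read 12.34 in p53-/- and 12.14 in p66-/-, against 13.05 in WT. Of 38 conjugation enzymes 2 were lower and 1 higher, and the most different of them are methyltransferases. Nnmt, which methylates nicotinamide, read 7.52 in p53-/- and 7.85 in p66-/-, against 10.26 in WT. Inmt, which methylates indole amines, read 12.07 in p53-/- and 11.94 in p66-/-, against 10.51 in WT. So these enzymes, which share a methyl donor, lay on opposite sides of WT, each with the knock-outs together. Gnmt, a glycine methyltransferase, read 13.73 in p53-/- and 13.87 in p66-/-, against 13.65 in WT. The other lower one, the sulfotransferase Sult1d1, read 9.51 in p53-/- and 8.93 in p66-/-, against 10.19 in WT. Sult1d1 and Mat1a lost the call with quantile and cyclic loess scaling.

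Of 38 P450 enzymes and regulators 1 was lower and 1 higher in both, the list median being -0.06 in p53-/- and 0.08 in p66-/-. Cyp3a13 read 10.93 in p53-/- and 10.89 in p66-/-, against 11.67 in WT, and Cyp2c38 read 8.58 in p53-/- and 8.73 in p66-/-, against 7.99 in WT. Cyp3a13 lost the call with quantile and cyclic loess scaling, and Cyp2c38 lost it with centred arrays. In bile acid synthesis and transport 2 of 26 were lower and 1 higher. Besides Cyp39a1, the phospholipid exporter Abcb4 was lower, at 11.28 in p53-/- and 11.31 in p66-/-, against 11.92 in WT. The Abcb4 call was lost with quantile and cyclic loess scaling. Nr0b2, the repressor SHP of bile acid synthesis, was higher, at 10.15 in p53-/- and 10.21 in p66-/-, against 9.45 in WT. Cyp7a1, the rate-limiting enzyme that SHP represses, read 9.15 in p53-/- and 8.85 in p66-/-, against 9.57 in WT, so that it passed 1.5-fold in p66-/- only. The 18 glycolysis and glycogen genes and the 19 apolipoproteins and lipid carriers gave 0 in both directions, with Apoa1 at 14.73 in p53-/- and 14.60 in p66-/-, against 14.68 in WT.

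**Figure D4:**
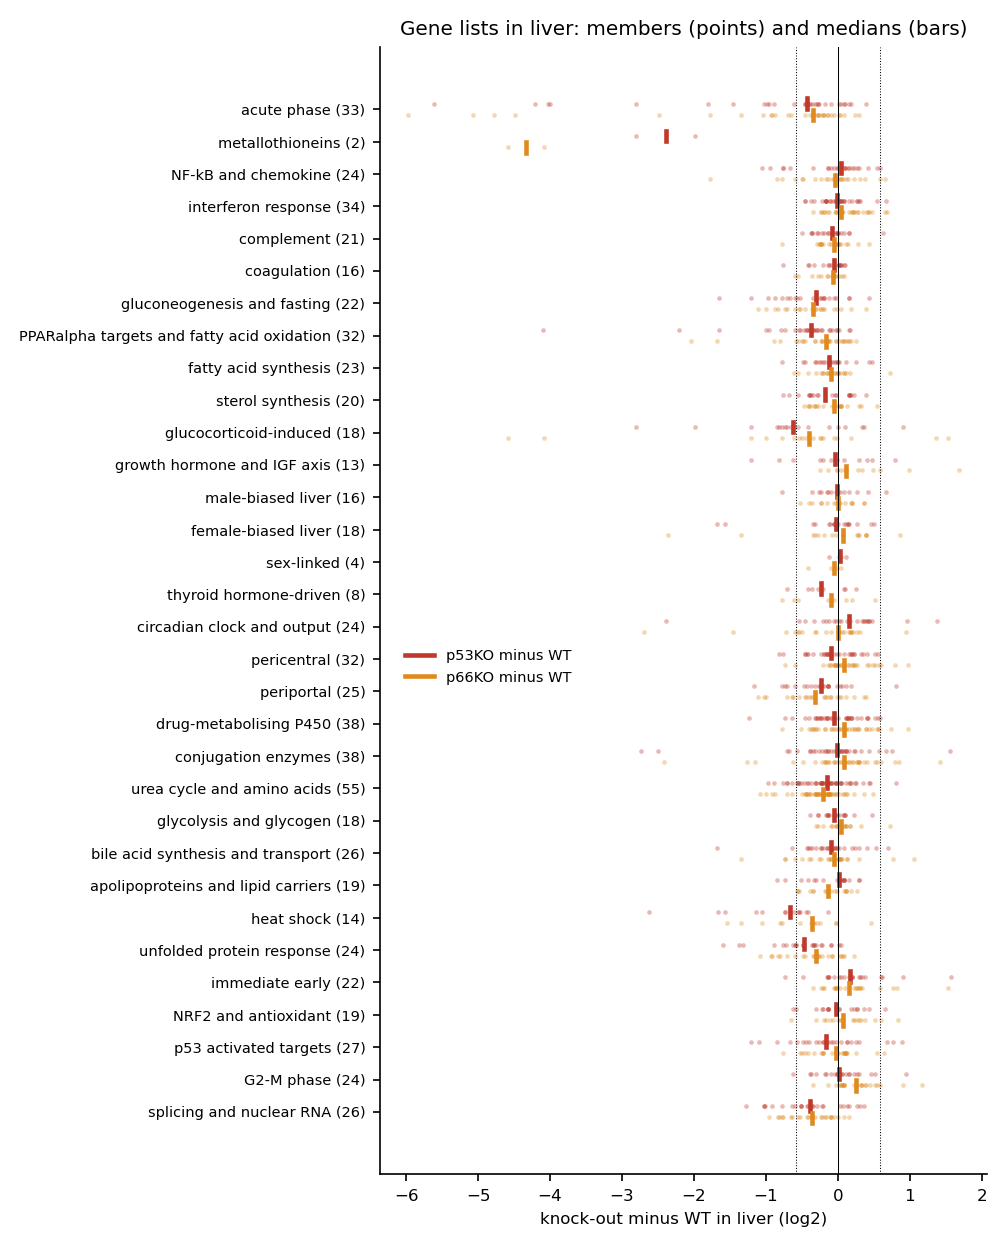
Difference from WT liver in log2 units for the members of each gene list, with p53KO minus WT above p66KO minus WT in each row; each point is 1 gene, bars are list medians, dotted lines mark 1.5-fold and the number measured stands beside each name. Acute phase, heat shock, unfolded protein response and glucocorticoid-induced genes have both medians between -0.67 and -0.30, while complement, sterol synthesis and the P450 list lie nearer 0.

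The remaining genes of the 25 lowest came from outside these lists, as did 119 of the 170 lower genes. Slc3a1, a subunit of the cystine transporter, read 8.46 in p53-/- and 8.41 in p66-/-, against 9.72 in WT. Mfsd2a, a carrier of lysophospholipids that fasting induces in mouse liver, read 8.10 in p53-/- and 7.79 in p66-/-, against 9.26 in WT. Scara5, a ferritin receptor, read 8.72 in p53-/- and 8.87 in p66-/-, against 9.88 in WT. On these WT was the high array and the knock-outs lay close to each other. Obp2a, an odorant-binding lipocalin, read 8.06 in p53-/- and 6.80 in p66-/-, against 9.08 in WT. Adap2, which binds phosphoinositides, read 6.93 in p53-/- and 7.51 in p66-/-, against 8.77 in WT, and Tacc2, a centrosomal protein, read 8.84 in p53-/- and 9.0 in p66-/-, against 10.02 in WT.

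A list of 26 measured splicing and nuclear RNA genes was added after the data were seen, so its count has no weight as a test. In it 7 (26.9%) were lower in both knock-outs and 0 higher, and the median member lay -0.39 from WT in p53-/- and -0.36 in p66-/-. Srpk2, a kinase of splicing factors, read 7.13 in p53-/- and 7.44 in p66-/-, against 8.41 in WT, and the paraspeckle protein Sfpq read 8.05 in p53-/- and 8.24 in p66-/-, against 9.06 in WT. The nuclear RNA Malat1 has 7 probe sets, and the one used, the brightest over the 12 arrays, read 9.92 in p53-/- and 10.17 in p66-/-, against 10.94 in WT. A pair of the others gave differences of -2.83 and -2.81 in p53-/- and -2.75 and -2.67 in p66-/-, while the remaining 4 lay between -0.46 and 0.20 in both, so its probe sets disagree. The 5 other probe sets of Sfpq gave -0.48 to 0.07 in p53-/- and -0.52 to 0.12 in p66-/-, so the same holds for it.

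Where a gene had further probe sets, these were read as a second look at the same RNA. Of the 170 lower genes 98 had 221 others, of which 134 were below WT in both knock-outs, 40 of them by 1.5-fold or more, and 45 were above WT in both. Among the 124 of these with a liver signal at or above the median, 94 were below WT in both and 15 above. The 43 higher genes with others had 81, of which 40 were above WT in both, 5 of them by 1.5-fold or more, and 22 were below.

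The largest difference above WT was that of Scgb1a1, the secretoglobin of airway club cells. It read 8.91 in p53-/- and 9.11 in p66-/-, against 4.63 in WT, which is 19.3-fold and 22.3-fold higher. On the lung arrays the same gene read 15.41 in p53-/- and 15.27 in p66-/-, against 14.94 in WT. A list of lung epithelium markers, added after the data were seen, had 2 of 15 genes higher in both livers, Scgb1a1 and the surfactant protein Sftpc, which read 7.37 in p53-/- and 7.22 in p66-/-, against 6.57 in WT. The Sftpc call was lost with the mean of all probe sets, with centred arrays and with quantile scaling. The surfactant gene Sftpa1 read 5.62 in p53-/- and 5.95 in p66-/-, against 5.32 in WT, and passed 1.5-fold in p66-/- alone. Of the 15 genes 8 lay above WT in both and 3 below, with a list median of 0.10 in p53-/- and 0.07 in p66-/-. Other club cell and surfactant genes lay closer to WT, with Scgb3a2 at 6.84 in p53-/- and 7.02 in p66-/-, against 6.90 in WT, and Sftpb at 8.21 in p53-/- and 8.08 in p66-/-, against 8.27 in WT. The log2 of the summed signal of the 15 was at most 12.07 in the knock-outs, against 11.87 in WT. The part of lung RNA in the Scgb1a1 difference was not tested. Of 9 pancreas markers 1 was higher in both, the elastase Cela2a, at 6.97 in p53-/- and 7.01 in p66-/-, against 6.37 in WT. The Cela2a call was lost with centred arrays and with quantile and cyclic loess scaling.

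Other genes higher in both livers had smaller differences. Ces1e, a liver carboxylesterase, read 11.14 in p53-/- and 10.62 in p66-/-, against 9.70 in WT. Tsc22d1, a leucine zipper regulator induced by TGF-beta, read 11.59 in p53-/- and 11.58 in p66-/-, against 10.80 in WT. Map2k6, the kinase that activates p38, read 7.58 in p53-/- and 7.28 in p66-/-, against 6.51 in WT. The lectin Zg16 read 8.73 in p53-/- and 9.09 in p66-/-, against 7.78 in WT, a call that ends without probe sets ending in _x_at or _s_at, where its differences were -0.28 in p53-/- and -0.23 in p66-/-. Celf3, Serpina9, Aplp1, Tmem59l and Gprc5c completed the 15 highest, with WT levels of 6.59 to 8.03 and smaller differences of 0.76 to 0.77. Aplp1 is likewise measured by a probe set of that kind, and without such probe sets its differences were 0.19 in p53-/- and 0.01 in p66-/-. Apart from Inmt, Ces1e, Tsc22d1 and Egr1, the WT levels of these 15 genes were 8.03 or lower.

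The knock-outs themselves differed most for Mtm1, the phosphatase myotubularin, at 6.22 in p53-/- and 9.08 in p66-/-, with 7.63 in WT, so that WT lay between them. Cyp4a14, Socs2, Gadd45g and Ugt2b37 were the other genes furthest below p66-/- in p53-/-. Ugt2b37, a glucuronosyltransferase, read 5.85 in p53-/- and 7.85 in p66-/-, against 8.34 in WT. Dbp, Mt1, Mt2, Acta1 and Serpina12 lay furthest above p66-/- in p53-/-. Serpina12, the serpin vaspin, read 9.15 in p53-/- and 7.49 in p66-/-, against 7.91 in WT. The muscle actin Acta1 read 9.27 in p53-/- and 7.55 in p66-/-, against 9.42 in WT, and it went with other muscle transcripts. Of 10 skeletal muscle markers 8 were lower in p66-/- and 2 in p53-/-. The log2 of the summed signal of the 10 was 11.25 in p53-/- and 10.23 in p66-/-, against 11.42 in WT. The 2 lower in both were Myh1, a fast myosin, at 6.65 in p53-/- and 4.51 in p66-/-, against 8.25 in WT, and the calcium pump Atp2a1, at 7.02 in p53-/- and 6.87 in p66-/-, against 7.62 in WT. Whether muscle entered the dissected tissue was not tested.

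Whether the liver genes moved likewise elsewhere was tested on the 9 arrays of heart, lung and thymus, which the choice of members did not use. Each genotype has 1 pool per tissue, so the tissues stood in for replicates. It is not given whether the pools of a genotype share mice across tissues. These arrays may therefore not be independent of the liver arrays or of one another, whereas the p-values take them as independent. limma was fitted with tissue as a block, leaving 4 residual degrees of freedom, and both coefficients share the 3 WT arrays. At a Benjamini-Hochberg adjusted p under 0.05, 0 of 18193 genes passed in either knock-out (0%), with a lowest adjusted p of 0.185 in p53-/- and 1.0 in p66-/-. At an unadjusted p under 0.05, 36 of the 170 genes lower in liver were lower in p53-/- and 20 in p66-/-, where 949 (5.22%) and 312 (1.71%) of all genes were. The median over the 170 was -0.32 in p53-/- and -0.12 in p66-/-, against 0.04 and 0.01 over all genes. Of the 80 genes higher in liver 1 was higher in p53-/- and 3 in p66-/-, where 686 (3.77%) and 282 (1.55%) of all genes were, and their medians were -0.05 and -0.08. So no liver gene was called in heart, lung and thymus together.

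Tissue by tissue, with 1 array per genotype and no test, the members did not all lie on the side of WT they took in liver. Of the 170 genes lower in liver, 71 (41.8%) were 1.5-fold or more lower in both knock-outs in heart, where 5.67% of all genes were, and 32 (18.8%) in lung, where 1.67% were. In thymus 24 (14.1%) were lower and 39 (22.9%) higher in both, against 8.20% and 17.1% of all genes. Of the 80 genes higher in liver, 1 was higher in both in heart, 3 in lung and 6 in thymus, where 0.907%, 0.583% and 17.1% of all genes were. In thymus 29 (36.2%) of these 80 were lower in both. Each of these counts uses the WT array of its own tissue in both differences.

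Hspa1b was below WT in each of these tissues too. In heart it read 7.21 in p53-/- and 7.63 in p66-/-, against 10.58 in WT. In lung it read 7.86 in p53-/- and 9.81 in p66-/-, against 12.22 in WT, and in thymus 7.62 in p53-/- and 8.84 in p66-/-, against 10.06 in WT. WT was the highest array in all 4 tissues. The limma estimate was -3.39 ± 0.39 (SE) in p53-/- with an adjusted p of 0.221, and -2.19 ± 0.39 in p66-/- with an adjusted p of 1.0. Dnajb1, Hsph1 and Bag3 lay below WT in both knock-outs in heart and lung. In thymus Dnajb1 read 9.86 in p53-/- and 10.16 in p66-/-, against 9.39 in WT. There WT lay between the knock-outs for Hsph1, and Bag3 lay below WT in both. So the other chaperones did not all follow Hspa1b in thymus. Lcn2 read 5.72 in p53-/- and 5.67 in p66-/-, against 7.56 in WT heart, 9.45 and 9.40 against 10.50 in lung, and 7.31 and 6.71 against 10.06 in thymus. Its estimate was -1.88 ± 0.38 in p53-/- and -2.12 ± 0.38 in p66-/-, with limma adjusted p of 0.479 and 1.0. Saa1 and Fgl1 were also far below WT in lung. Saa1 read 4.62 in p53-/- and 5.07 in p66-/-, against 9.81 in WT lung, and 5.06 in p53-/- and 4.52 in p66-/-, against 5.18 in WT heart. Fgl1 read 5.61 in p53-/- and 6.19 in p66-/-, against 8.48 in WT lung, and 5.75 in p53-/- and 5.53 in p66-/-, against 5.39 in WT heart. In thymus Saa1 and Fgl1 lay between 5.24 and 5.76 in all genotypes.

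Among these arrays the WT thymus stood apart from its knock-outs (r = 0.929 with p53-/- and 0.924 with p66-/-, against 0.982 between the knock-outs). The log2 of the summed signal of 14 salivary gland markers was 9.72 in p53-/- and 9.67 in p66-/- thymus, against 17.86 in WT thymus. The p53-/- lung array also stood apart, with r = 0.964 to WT. Without the thymus arrays, which leaves 2 residual degrees of freedom, 35 of the 170 lower genes had an adjusted p under 0.05 in p53-/- in the limma fit, where 243 (1.34%) of all genes did, and 4 did in p66-/-, where 5 (0.0275%) of all genes did. The 4 were Hspa1b, Dnajb1, S100a8 and S100a9. Hspa1b was then -3.86 ± 0.30 in p53-/- and -2.68 ± 0.30 in p66-/-, with adjusted p of 0.000889 and 0.0188. S100a8 was -2.66 ± 0.29 in p53-/- and -2.35 ± 0.29 in p66-/-, with adjusted p of 0.00467 and 0.0286. Lcn2 passed in p53-/- (-1.45 ± 0.24, adjusted p of 0.0244) and not in p66-/- (-1.50 ± 0.24, adjusted p of 0.133). Without the heart arrays or without the lung arrays 0 genes passed. Without lung, 17 of the 170 in p53-/- and 13 in p66-/- were lower at an unadjusted p under 0.05. The calls therefore rest on leaving out thymus.

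**Figure D5:**
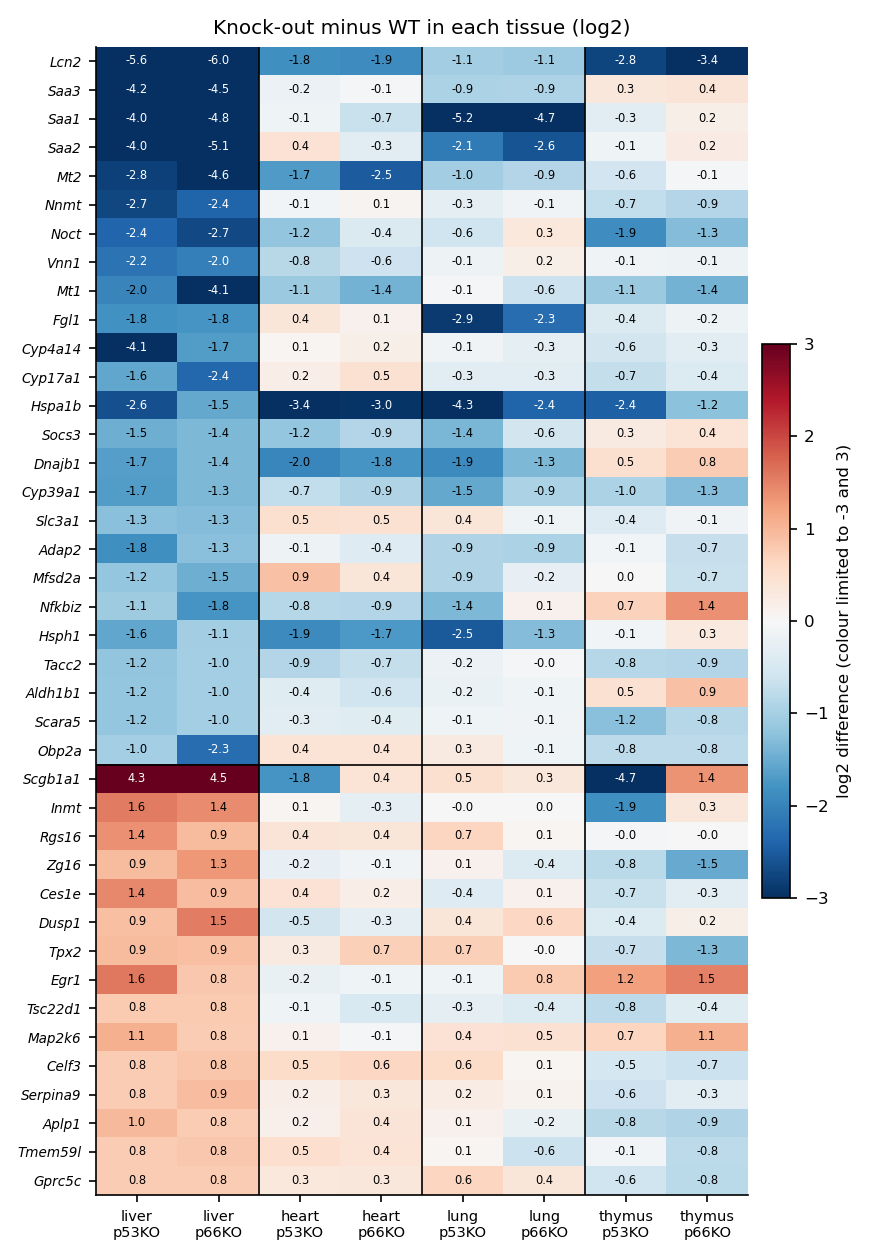
Difference from WT in log2 units for the genes named as lower or higher in both knock-out livers, one row per gene, with p53KO minus WT and p66KO minus WT as neighbouring columns for liver, heart, lung and thymus; colour and printed number give the difference, and the line parts lower from higher genes. Hspa1b and Lcn2 are below WT in every tissue, Saa1 and Fgl1 are below WT in liver and lung, and Scgb1a1 is above WT in both knock-outs in liver.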

How the data were processed

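Total RNA from liver, heart, lung and thymus was hybridised to 12 arrays, each a pool of 4 mice. The authors deposited log2 signals, 1 per probe set and array, computed with RMA in Partek 6.5 according to the submitters' processing notes. This adjusts background, equalises the array distributions and summarises probes, so a change shared by most genes would be removed. The values ran from 3.26 to 15.41 and were used as given. Arrays carry no read depth, and their number limits the precision. The columns were matched to samples by title, and 0 value columns were left without a sample.

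Of 45101 probe sets 64 controls were set aside. 34945 had 1 gene symbol in the platform annotation, of which 34741 matched RefSeq, and each of 18193 genes took its probe set of highest mean over the 12 arrays. For 1523 genes that probe set carries the suffix _x_at or _s_at, a sign that it can bind transcripts of related genes. Differences were knock-out minus WT, counted from 0.585 (1.5-fold). With 1 array per group no p-value was computed within liver. limma was fitted to the heart, lung and thymus arrays with tissue as a block and Benjamini-Hochberg adjustment at 0.05, and the script was first tested on simulated data. Whether pools of a genotype share mice across tissues is not given. Promoters and names came from RefSeq.

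Named genes were the 25 lowest and 15 highest by the smaller of the differences among genes at or above the median liver signal of 7.08, up to 6 members of each of 45 lists and their defining markers, the 5 genes most different between the knock-outs in each direction, the 2 genes on each side of the thresholds, Shc1, and up to 10 liver genes called by limma in each direction. Other list members given as examples were chosen after their values were seen. The members and lists were chosen with earlier results of these data known. The lists of lung epithelium and of splicing and nuclear RNA, and the brightest probe set over the liver arrays as an alternative, were added after the data were seen. The other alternatives were 2-fold, brighter genes, the mean of all probe sets, no _x_at or _s_at probe sets, centring, quantile and cyclic loess scaling, either knock-out as the odd array, each tissue left out, all tissues, an intensity trend, and both knock-outs averaged. The software was R 4.3.3 with limma 3.58.1, and Python 3.11.15 with pandas 2.3.3, numpy 2.4.6, matplotlib 3.10.9 and scipy 1.17.1.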

Additional observations from a re-analysis of the deposited data

Results flagged for a closer look

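In 14 of the 86 genes named here among the 250, both knock-outs differed from WT by 1.5-fold or more in another tissue, opposite to liver. This difference between tissues was not tested. For 11 of them the other tissue was thymus, where 17.1% of all genes were higher and 8.20% lower in both knock-outs. Over all members, 22.9% of the 170 lower liver genes were higher there and 36.2% of the 80 higher ones were lower. Lower in both livers and higher in thymus were Nfkbiz (0.70 in p53-/- and 1.37 in p66-/-), Srpk2 (1.19 and 1.61), Fkbp5 (1.40 and 1.47) and Trp53inp1 (1.22 and 1.24). Higher in both livers and lower in thymus were Zg16 (-0.82 in p53-/- and -1.52 in p66-/-), Tpx2 (-0.68 and -1.34), Aplp1 (-0.84 and -0.90), Gprc5c (-0.59 and -0.82), Nr0b2 (-1.46 and -1.40), Plk2 (-1.78 and -1.78) and Vwc2 (-1.70 and -0.65). All of these use the WT thymus array, which held the salivary gland signal given above, and its part was not tested. In heart Myh1 was higher (0.65 in p53-/- and 0.75 in p66-/-) and Cela2a lower (-1.35 and -0.99), and in lung Ces1g was lower (-1.45 and -0.91).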

How the results depend on the processing

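No paired analysis was possible because each group has 1 array and the labels carry no replicate numbers, so no array could be left out within liver. At 2-fold, 76 genes were lower and 17 higher in p53-/-, 55 and 15 in p66-/-, 34 and 4 in both, and 20 and 19 in p53-/- against p66-/-. Among genes at or above the median signal, 146 were higher in p53-/-, 104 in p66-/- and 42 in both, and p53-/- was lower than p66-/- for 112 and higher for 71. With the mean of all probe sets, 327 were lower and 165 higher in p53-/-, 146 higher in p66-/-, 113 lower and 41 higher in both, and p53-/- was lower than p66-/- for 97 and higher for 81; of the 170 and 80, 96 and 38 remained. Centring left 154 higher in p66-/- and 46 in both. Quantile scaling kept 126 of the 170 and 56 of the 80, and cyclic loess kept 131 and 60. With p53-/- as the odd array 42 genes were higher and 67 lower than in the others, and with p66-/- 32 and 33. The other liver counts stayed within 1.5 times. Over the alternatives the acute phase median lay between -0.47 and -0.26 in p53-/- and between -0.40 and -0.26 in p66-/-, and the heat shock median between -0.74 and -0.55 in p53-/- and between -0.44 and -0.31 in p66-/-. Without probe sets ending in _x_at or _s_at, Trib3 (0.10 in p53-/-) and Zg16 (-0.28 in p53-/- and -0.23 in p66-/-) reversed and Mt1 became -0.12 and -0.78; the cause was not tested. Of 86 genes named here among the 250, 25 fell under 1.5-fold in at least 1 knock-out with the mean of all probe sets, among them Pck1, Fkbp5, Nfkbiz, Cebpd, Pdia4, Sel1l, Trp53inp1, Herc6, Tpx2 and Scara5. With quantile scaling 16 did so and with cyclic loess 13, in both cases among them Tat, Pcx, Hp, Mat1a, Abcb4 and Hsd17b13. Centring ended 6 calls, all of higher genes, namely Cela2a, Cxcl13, Cyp2c38, Plk2, Sftpc and Vwc2. The serum amyloid A genes, Lcn2, Mt2, Hspa1b, Dnajb1, Vnn1 and Scgb1a1 lost the call under none of these. The number of lower liver genes called elsewhere was 0 in either knock-out, 35 in p53-/- and 4 in p66-/- without thymus, and 1 in p53-/- with all 4 tissues, a fit that reuses liver.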
